A study of Mus musculus with 3 samples.

Results

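The 10 genes described here hold the mouse oocyte in meiotic arrest or release it from arrest: Gpr3, Adcy3 and Pde3a set the level of cAMP, Cdc25b, Wee2, Ccnb1, Ccnb2 and Cdk1 form or control the CDK1 kinase, and Mos and Fbxo43 act in metaphase arrest. They were chosen by name for these roles, with earlier results of these data known, so counts of marked genes are a description. The histone mark H3K36me3 was measured over their bodies, as annotated in GENCODE M21 on the GRCm38 build, and 225 of the 1186323 valid 2 kb windows of the genome overlapped them. The bodies span 229 such windows, and 4 of these, 3 in Pde3a and 1 in Adcy3, were not in the valid set. All samples belonged to 1 group, wildtype C57BL6/Babr mice of 25 days, from which germinal vesicle (GV) oocytes were collected in 3 pools of about 280 oocytes. With no second stage, genotype or treatment, the comparisons below are between genes, between parts of a gene and between marks.

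A fully grown GV oocyte is stopped in prophase of the first meiotic division. A constitutively active receptor, GPR3, drives adenylyl cyclase to make cAMP, cAMP keeps protein kinase A active, and protein kinase A in turn keeps the kinase WEE2 active and the phosphatase CDC25B out of the nucleus, so that CDK1 with its cyclin B partner stays phosphorylated and inactive. When PDE3A destroys the cAMP, CDK1 is activated and the nuclear envelope breaks down. The egg later stops again at metaphase of the second division, held by MOS, a kinase at the head of the MAP kinase cascade, and by the product of Fbxo43 (EMI2), an inhibitor of the anaphase-promoting complex. H3K36me3 is placed over gene bodies by SETD2 travelling with elongating RNA polymerase II, so it marks a record of transcription along the gene, and in oocytes it lies where DNA methylation is gained. H3K4me3 in oocytes covers promoters and also broad domains away from them, and H3K27me3 covers domains that are little transcribed.

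The assay was ultra-low-input native ChIP-seq, in which chromatin cut by a nuclease without crosslinking is precipitated with an antibody to the mark. Each window has an RPKM value per replicate, the authors' count of reads scaled to the depth of the library. All windows are 2 kb, so values compare between genes per length. For replicates 1, 2 and 3 a single read counted for 0.136, 0.396 and 0.338 RPKM, and the valid windows held 7888140, 2692510 and 3166564 reads. A median window had 4 reads in replicate 1 and 1 read in each of the others, so single windows were coarse and replicate 1 was the most precise. Replicate 2 was made with less antibody. A window was called enriched for H3K36me3 where the mean of the replicates was above 1, which matched the authors' deposited call in every valid window. The oocyte marker genes, such as Bmp15 and Zp3, were above 1 in 10 of 10 cases, against 5 of 10 for the granulosa and cumulus markers, 1 of 4 for those of blood and stroma, and 52.5% of protein-coding genes. The granulosa markers ranged from Fshr (0.353) to Nr5a1 (1.59), with no enriched window in Foxl2 and Inha, and of the blood and stroma markers Pecam1 (1.91) was the one above 1. Since each pool mixed many oocytes, a mark on fewer of them and a weaker mark on all of them cannot be told apart.

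Every gene start fell in a window that the authors had called for H3K4me3 (10 of 10 genes), a call found in 78.0% of the start windows of protein-coding genes. RefSeq promoters, of 250 bases before and 50 after the start on the GRCm38.p6 build, were on hand for 7 of the 10 genes, with 2 for Adcy3. Pde3a, Mos and Fbxo43 had no entry. The promoters of Cdc25b and Wee2 are shown because these were the genes of highest H3K36me3 level, and those of Ccnb2 and Cdk1 as genes of the cell cycle, picked after their values were seen. Each is written 5′ to 3′ in the direction of the gene, from 250 bases before the start up to the start or, for Cdk1, up to the first annotated transcribed base. Capitals mark 4 short motifs on either strand: CCAAT, the core bound by NF-Y; TTTGAA, the core of the cell cycle homology region; and the cores bound by the oocyte factor NOBOX, which are TAATTA or else TAATTG.
Cdc25b, chr2:131186698-131186947, plus strand: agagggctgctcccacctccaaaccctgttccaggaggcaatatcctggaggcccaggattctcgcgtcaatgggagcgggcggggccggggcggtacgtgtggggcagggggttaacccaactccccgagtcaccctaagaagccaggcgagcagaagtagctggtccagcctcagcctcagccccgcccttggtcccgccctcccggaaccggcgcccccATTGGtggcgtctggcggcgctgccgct
Wee2, chr6:40442613-40442862, plus strand: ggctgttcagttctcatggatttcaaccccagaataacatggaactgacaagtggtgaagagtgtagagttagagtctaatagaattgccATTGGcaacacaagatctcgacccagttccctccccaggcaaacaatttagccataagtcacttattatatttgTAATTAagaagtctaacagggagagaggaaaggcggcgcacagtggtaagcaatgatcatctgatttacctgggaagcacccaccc
Ccnb2, chr9:70421555-70421804, minus strand: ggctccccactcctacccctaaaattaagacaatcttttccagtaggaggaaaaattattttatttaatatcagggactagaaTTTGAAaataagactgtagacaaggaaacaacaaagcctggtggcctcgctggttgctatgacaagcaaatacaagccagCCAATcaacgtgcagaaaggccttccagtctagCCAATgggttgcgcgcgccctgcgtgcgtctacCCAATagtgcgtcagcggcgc
Cdk1, chr10:69352939-69353162, minus strand: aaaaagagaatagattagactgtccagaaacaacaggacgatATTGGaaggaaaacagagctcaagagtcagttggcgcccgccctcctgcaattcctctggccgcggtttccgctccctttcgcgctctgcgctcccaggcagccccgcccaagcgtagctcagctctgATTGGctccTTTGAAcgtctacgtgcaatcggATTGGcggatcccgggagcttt

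These 4 promoters differ in base composition as well as in motifs. Over its 300 bases the Wee2 promoter had 5 CpGs and 46.0% G and C, where Cdc25b had 20 CpGs and 65.3%, Cdk1 24 CpGs and 57.7%, and Ccnb2 19 CpGs and 51.7%. The median of all 32851 promoters in the table was 7 CpGs. Gpr3, with 38 CpGs, was at the CpG-rich end. CCAAT on either strand was in 7 of the 8 promoters of these genes, and 37.4% of all promoters held it. Ccnb2 and Cdk1 had 3 copies each. TTTGAA was in 2 of the 8, Ccnb2 and Cdk1, with 2 copies each over the 300 bases, and in 17.9% of all promoters. Not all of these TTTGAA copies lie in the stretches shown. A NOBOX core was found only in Wee2, and in 12.4% of all promoters. The letters of a NOBOX core and of CCAAT read on the other strand can overlap. These matches describe the sequence and are not evidence of binding. The start window of Wee2 holds the GENCODE start, which lies upstream of the RefSeq one. The window with the RefSeq start of Wee2 was also called for H3K4me3.

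H3K36me3 was above 1 over 9 of the 10 genes when the gene level, the mean RPKM of all windows over the gene, was averaged over the replicates. The share of 52.5% above 1 is over 21062 protein-coding genes with at least 1 valid window, by the same measure. In each replicate taken alone 8 of the 10 were above 1, against 46.5% of all protein-coding genes. Cdc25b and Wee2 were highest and Adcy3, at 0.982 ± 0.019 (SD, n = 3), was lowest. The median over the 10 genes was 1.91, with 1.80, 2.13 and 2.09 in replicates 1, 2 and 3, and the median over all protein-coding genes was 1.11. Of the 7 genes of up to 10 windows, 7 were above 1, against 41.8% of protein-coding genes of that size.

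**Figure D1:**
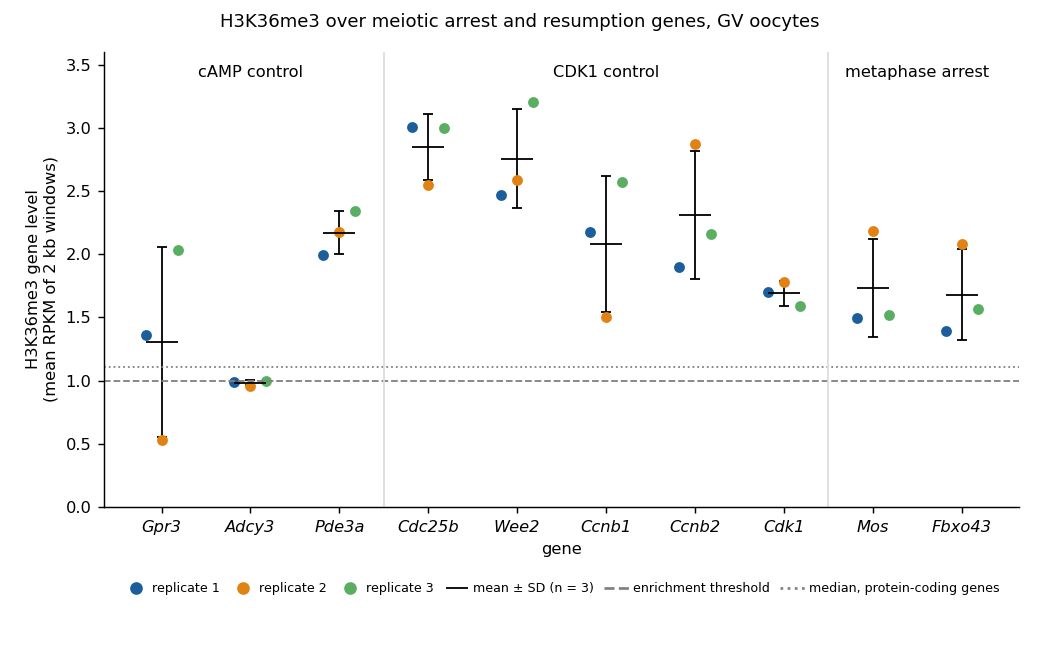
Gene level of H3K36me3 for the 10 genes, as the mean RPKM of the 2 kb windows over the gene body; points are replicates, bars the mean ± SD of 3, and the lines mark the threshold of 1 and the median of protein-coding genes. Cdc25b and Wee2 stand highest, Adcy3 lies just under 1 in every replicate, and Gpr3 spans 0.529 to 2.03.

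Neighbours in the order of levels could not be told apart. From the top the order was Cdc25b, Wee2, Ccnb2, Pde3a, Ccnb1, Mos, Cdk1, Fbxo43, Gpr3 and Adcy3, and for each of the 9 pairs of neighbours the replicate values overlapped. Only wider steps separated: the lowest replicate of Cdc25b, 2.55, was above the highest of Pde3a, 2.34, of Cdk1, 1.78, and of Adcy3, 0.998. Between 3 replicates and 3, an exact sign-flip test cannot give a p below 0.25, so no difference between 2 genes or 2 parts of a gene could reach 0.05 here, and consistency over the 3 replicates is given instead.

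The receptor that starts the cAMP pathway was the least certain of the set. Gpr3 (ENSMUSG00000049649, chr4:133209340-133212536, minus strand) is short, with 3 windows, and had gene levels of 1.36, 0.529 and 2.03 RPKM in replicates 1, 2 and 3, from 30, 4 and 18 reads. The mean was 1.31 ± 0.752 (SD, n = 3). Replicate 2 was the low one, and the exact 95% Poisson interval of its 4 reads ran from 0.144 to 1.35 RPKM, which includes the threshold. No window of the gene was above 1 in each replicate. The mark did not begin in Gpr3. The window at its start also holds the beginning of Cd164l2, a gene on the opposite strand that overlaps Gpr3 by 406 bases, and the run of enriched windows extended 23.5 kb upstream of the Gpr3 start, past the far end of Cd164l2. In the 10 kb upstream of Gpr3 the values were 2.09, 1.90 and 2.91 RPKM, above the gene itself in all 3 replicates. Along Gpr3 the windows had 1.35, 1.78 and 0.787 RPKM in the mean of the replicates. The 3 windows beyond it were between 0.249 and 0.584. After those, 2 windows were enriched again, at 1.45 and 1.61 RPKM, and the farther one touches Wasf2, on the opposite strand. All 3 windows of Gpr3 also had the H3K4me3 call, a mark that 26.2% of windows over protein-coding genes carried.

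Adcy3, the adenylyl cyclase that makes the cAMP, was the one gene not enriched as a whole, and its signal was split along its length. Adcy3 (ENSMUSG00000020654, chr12:4133103-4213525, plus strand) had gene levels of 0.988, 0.961 and 0.998 RPKM, the closest agreement of the set. The mean was made of 2 unlike stretches. Of 5 equal parts of the gene, the first 4 had 0.479 ± 0.072, 0.689 ± 0.075, 0.526 ± 0.019 and 0.784 ± 0.152 RPKM (SD, n = 3), and the last had 2.47 ± 0.094. The last part coincides with Cenpo, a centromere protein gene on the opposite strand, whose body overlaps the last 17522 bases of Adcy3. In the 9 windows that also touch Cenpo the mean was 2.37, 2.60 and 2.37 RPKM in replicates 1, 2 and 3, and 8 of the 9 were enriched. In the 31 windows that touch no other gene it was 0.587, 0.486 and 0.600 RPKM, and 5 of the 31 were enriched, none of them in every replicate. The groups of values did not overlap. All 6 windows of Adcy3 that were above 1 in each replicate lay over Cenpo. The assay gives no strand, so signal from the 2 genes cannot be told apart in the shared windows. The high signal went on past the end of Adcy3 into Cenpo, at 2.65, 2.77 and 2.20 RPKM over the 4 valid windows of the next 10 kb. Of these, 3 were enriched, and the other had 0.768 RPKM and no mark.

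The remainder of Adcy3 carried the other marks. Of its 40 windows, 31 had the H3K4me3 call and 15 the H3K27me3 call, and 12 had both without H3K36me3. Adcy3 was the only one of the 10 genes with an H3K27me3 call, which 43.9% of protein-coding genes had in at least 1 window. No H3K27me3 call fell in the 9 windows shared with Cenpo, and 1 H3K4me3 call did. The start window held 0.272 RPKM in replicate 1 and no read in the others, and had both H3K4me3 and H3K27me3. Near the start, the CpG-rich promoter of Adcy3 (33 CpGs) lies in that same window. The 10 kb upstream was low as well, at 0.598, 0.238 and 0.677 RPKM.

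Pde3a, the phosphodiesterase that destroys cAMP at resumption, was enriched over most of its length. Pde3a (ENSMUSG00000041741, chr6:141249269-141507448, plus strand) is by far the longest of the genes and had 2.00, 2.18 and 2.34 RPKM in replicates 1, 2 and 3, a mean of 2.17 ± 0.173 (SD, n = 3). Of its 127 windows 120 were enriched and 85 were above 1 in each replicate. Its 5 equal parts ranged only from 1.89 ± 0.157 to 2.56 ± 0.289 RPKM, the middle being lowest and the end highest. Windows that touch an exon had 2.61 ± 0.485 RPKM (19 windows) and those wholly in introns 2.09 ± 0.143 (108 windows), higher over exons in all 3 replicates (2.37 against 1.93, 2.29 against 2.15 and 3.17 against 2.20). Most of the covered length was thus intronic.

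The edges of the mark lay close to the ends of Pde3a. The enriched windows began 3.27 kb before the gene start, where the short antisense gene Gm28523 lies, and ended 3.45 kb before the gene end, so the last 2 windows, at 0.656 and 0.407 RPKM, were not enriched. The 10 kb on either side was at 0.869, 0.713 and 0.406 RPKM upstream and 0.570, 1.03 and 0.406 downstream, below the body in all 3 replicates on both sides. H3K4me3 was called in only 5 windows of the body, among them the first 3, and H3K27me3 in none. Variation from window to window was mostly not shared by replicates. Across the 127 windows Pearson's r between replicates was 0.288, 0.355 and 0.083, given as a description of windows of 1 gene, and the variance of reads per window was 1.85, 1.87 and 2.80 times their mean. Single peaks inside Pde3a are therefore not described. Since that ratio is above 1, Poisson intervals are narrower than the real spread.

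**Figure D2:**
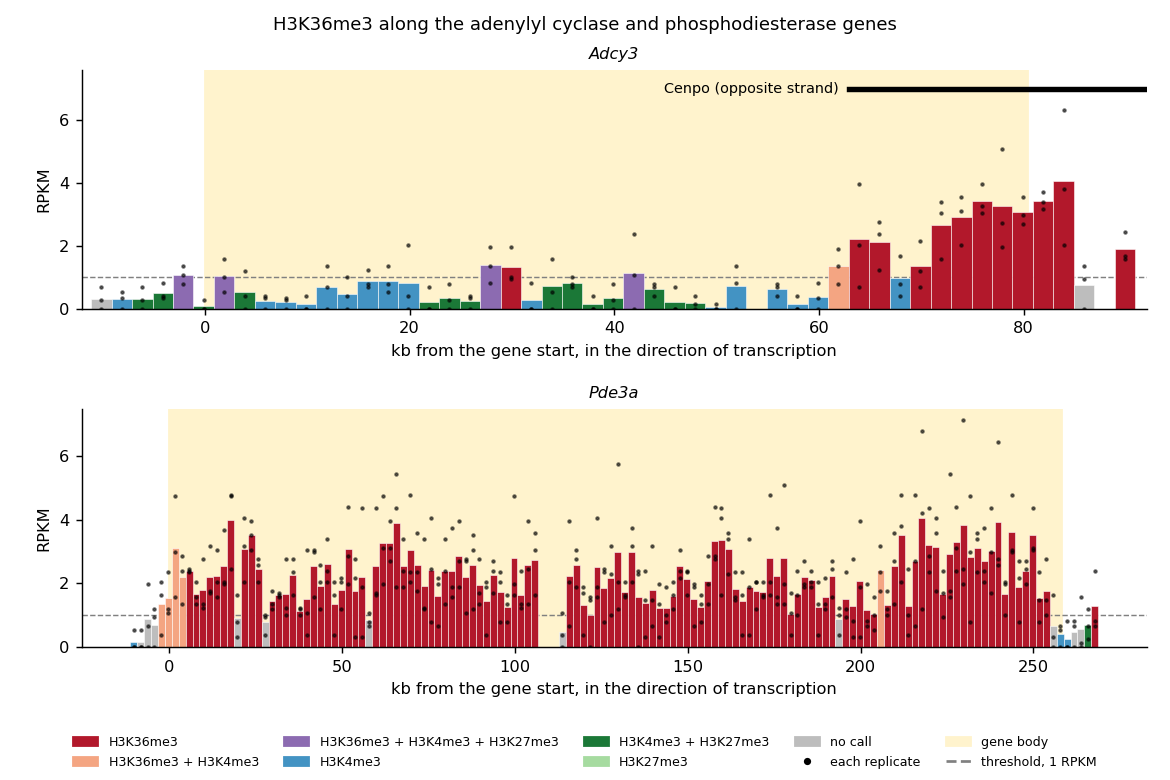
H3K36me3 along Adcy3 and Pde3a with 10 kb on each side; bars are the mean RPKM of each 2 kb window, coloured by the deposited mark calls, dots are the replicates, and gaps are windows outside the valid set. In Adcy3 the enriched windows are few until the stretch that overlaps Cenpo, where the mean is 2.45; Pde3a is enriched in 120 of 127 windows between low flanks.

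Among the genes that control CDK1, the phosphatase and the kinase that act against each other on it had the highest levels of the set. Cdc25b (ENSMUSG00000027330, chr2:131186949-131198497, plus strand), whose product removes the inhibitory phosphates of CDK1, had 3.01, 2.55 and 3.00 RPKM, a mean of 2.85 ± 0.262 (SD, n = 3). That was above 98.4% of protein-coding genes. With only windows whose midpoint lies inside the gene, the level of Cdc25b was 2.39 RPKM, below Wee2 at 2.80 and Mos at 2.61. The start window of Cdc25b, shared with the start of Spef1 on the opposite strand, was not enriched, at 1.09, 1.19 and 0.677 RPKM. The other 6 windows were enriched. The window at the gene end was the highest of all member windows, with 3.26, 7.13 and 6.43 RPKM and a mean of 5.61. The midpoint of that window lies past the annotated end. The run of enriched windows continued 7.50 kb past the annotated end and stopped before Ap5s1, where H3K27me3 calls began. Spef1 and Cenpb, the neighbours on the upstream side, had levels of 0.620 and 0.324 RPKM.

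Wee2, the oocyte kinase that puts the inhibitory phosphate on CDK1, was enriched in all of its 15 windows. Wee2 (ENSMUSG00000037159, chr6:40439088-40466813, plus strand) had 2.47, 2.59 and 3.20 RPKM, a mean of 2.75 ± 0.393 (SD, n = 3), above 97.5% of protein-coding genes. Of its windows 12 were above 1 in each replicate. It had no edge at either end: the gene sits inside a run of 44 enriched windows, 88.0 kb long, that takes in E330009J07Rik upstream on the opposite strand and Ssbp1 downstream, with levels of 2.44 and 2.16 RPKM. H3K4me3 calls covered the first 4 windows of the gene and the last 4 of the 5 windows before it. The level dipped to 1.25 RPKM in the middle of the gene and was highest, at 4.21, in its later part.

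The B-type cyclins, the activating partners of CDK1, were both marked and could not be ranked. Ccnb1 (ENSMUSG00000041431, chr13:100778650-100786570, minus strand) had 2.17, 1.51 and 2.57 RPKM and Ccnb2 (ENSMUSG00000032218, chr9:70407692-70421547, minus strand) had 1.90, 2.87 and 2.16, means of 2.08 ± 0.538 and 2.31 ± 0.504 (SD, n = 3). Ccnb1 was higher in 2 of 3 replicates and Ccnb2 in 1, and the values overlapped. Their shapes differed. In Ccnb1 the highest window was the second, just inside the gene, with 5.43, 2.38 and 6.77 RPKM, and the last window had 0.719 and no call of any mark. The 10 kb before Ccnb1 had 0.435, 0.238 and 0.541 RPKM, so the mark began sharply at its start, while Cenph, 2.75 kb past its end, was again enriched. Ccnb2 was enriched in 8 of 8 windows and lay in a run of 58.0 kb that reached into Rnf111 and Myo1e. Its start window, at 0.543, 1.98 and 1.02 RPKM, was lower than the rest of the gene, at 2.10, 3.00 and 2.32, in all 3 replicates.

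Cdk1, the kinase itself, stood alone between low flanks. Cdk1 (ENSMUSG00000019942, chr10:69335146-69352938, minus strand) had 1.70, 1.78 and 1.59 RPKM, a mean of 1.69 ± 0.097 (SD, n = 3), and no other gene lies within 10 kb. The upstream flank had 0.652, 0.159 and 0.338 RPKM and the downstream flank 0.489, 0.079 and 0.068, both below the body in all 3 replicates. A run of 9 enriched windows began 0.938 kb inside the gene start and ended 1.15 kb past its end. Only 5 of these were above 1 in each replicate. H3K4me3 was called in 7 of the 10 windows, 6 of them also enriched for H3K36me3, and in 9 of the 10 windows of the flanks. Over all protein-coding genes H3K4me3 was called in 26.2% of windows.

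Of the genes of metaphase arrest, Mos is a gene of 1 exon and only 2 windows. Mos (ENSMUSG00000078365, chr4:3870657-3872105, minus strand) had 1.49, 2.18 and 1.52 RPKM from 22, 11 and 9 reads, a mean of 1.73 ± 0.388 (SD, n = 3). The window with its start, which holds only the first 0.105 kb of the gene, had 1.09, 0.793 and 0.677 RPKM and the window with the rest of the gene 1.90, 3.57 and 2.37, and these did not overlap. With only the window whose midpoint lies inside the gene, the level of Mos was 2.61 RPKM. The mark did not end with the gene. The 5 windows after it were all enriched, at 1.90, 1.51 and 2.44 RPKM, and the run ended 16.7 kb past the gene end, with no gene but the small Gm24125 in it. The upstream flank was lower than Mos in all 3 replicates, at 1.14, 0.713 and 0.880 RPKM.

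Fbxo43, whose product EMI2 blocks the anaphase-promoting complex in the egg, had a body marked from the second window to the last. Fbxo43 (ENSMUSG00000048230, chr15:36150060-36164884, minus strand) had 1.39, 2.08 and 1.57 RPKM, a mean of 1.68 ± 0.358 (SD, n = 3). Its start window had 0.136, 0.793 and 0 RPKM and only the H3K4me3 call. The other 7 windows were enriched and carried no other mark, and 3 of them were above 1 in each replicate. The flank before the start was at 0.570, 0.476 and 0.541 RPKM, and the run of enriched windows ended 2.06 kb past the gene end. Rgs22, the next gene downstream, had a level of 0.581.

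**Figure D3:**
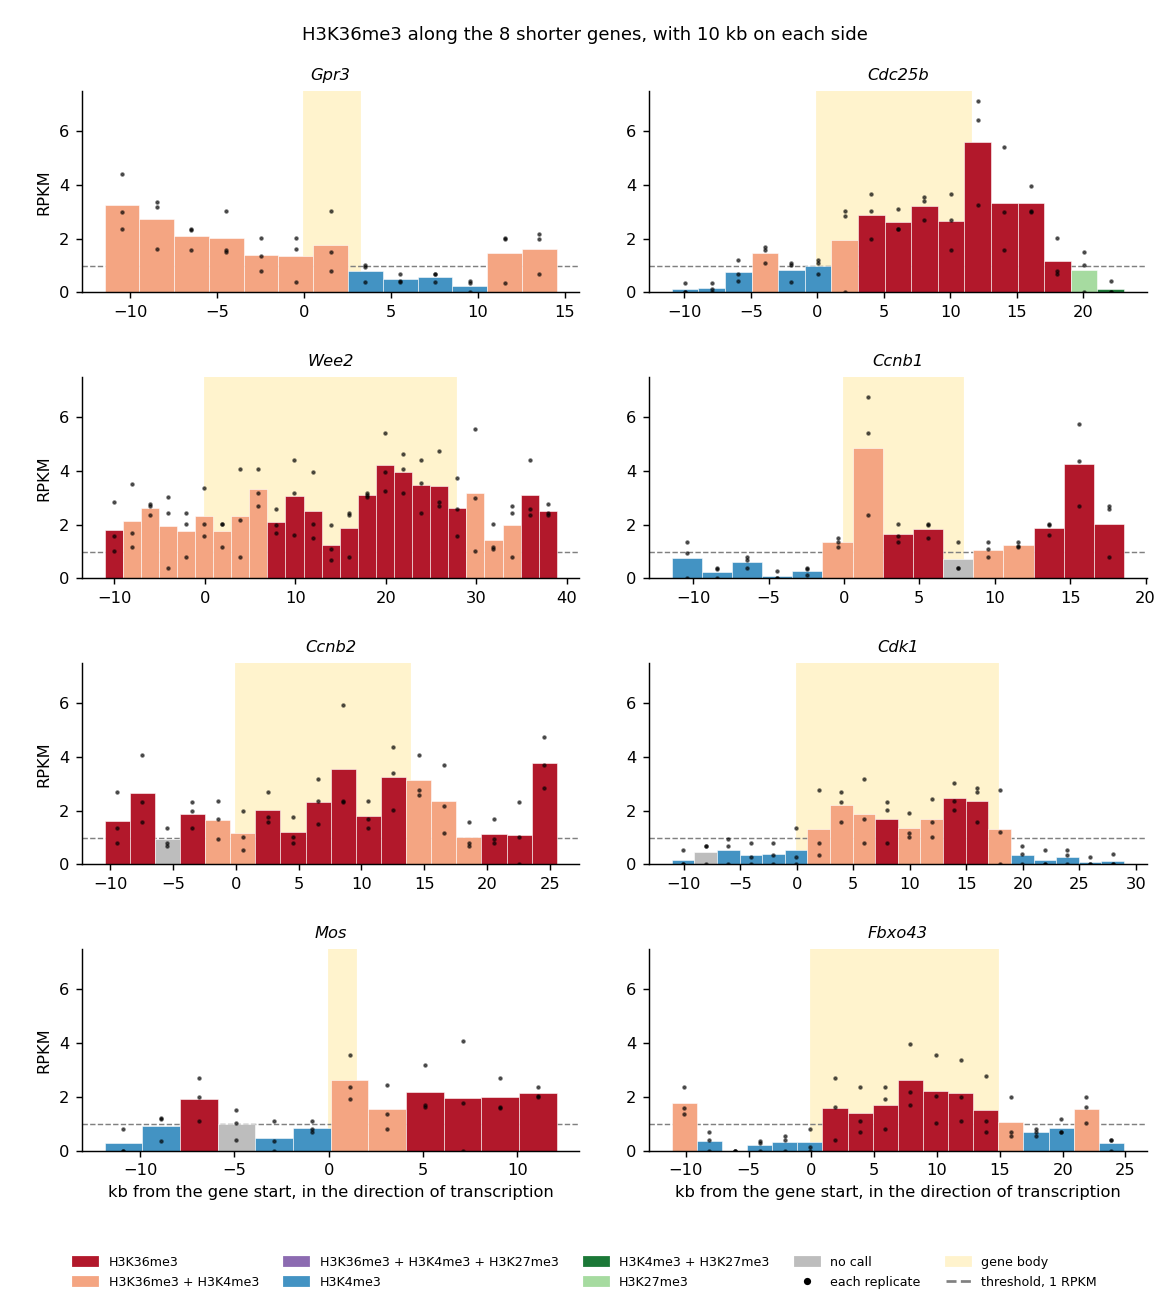
H3K36me3 along the other 8 genes with 10 kb on each side; bars are the mean RPKM of each 2 kb window, coloured by the deposited mark calls, and dots are the replicates. Cdk1 and Fbxo43 rise between low flanks, Wee2 and Ccnb2 lie within longer enriched stretches, and Cdc25b and Mos stay enriched past the gene end.

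Taking the 10 genes as windows, 185 of the 225, or 82.2%, were enriched for H3K36me3, and 51.2% of windows over protein-coding genes were. Windows above 1 in each replicate were 127, or 56.4%, against 34.0%. More than 1 in 2 of all these windows belong to Pde3a. Without Pde3a, 65 of 98 windows (66.3%) were enriched, and without Adcy3 too, 52 of 58 (89.7%). H3K4me3 was called in 59 of the 225 windows (26.2%), the same share as over protein-coding genes, 26.2%, and H3K27me3 in 15 (6.67%), against 25.9%. Without Pde3a the calls were 54 of 98 (55.1%) for H3K4me3 and 15 of 98 (15.3%) for H3K27me3. Without Adcy3 too, they were 23 of 58 (39.7%) for H3K4me3 and 0 of 58 for H3K27me3. H3K36me3 and H3K4me3 shared 23 windows with no H3K27me3 and 3 windows with it. A call is 1 per window with no replicates, and the H3K4me3 and H3K27me3 calls were made from other libraries, so shared calls do not show that both marks lie on the same chromatin.

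The start window was compared with the mean of the rest of the gene. In 6 of the 8 genes of at least 4 windows the start window was below the rest of the gene in all 3 replicates, and 55.4% of protein-coding genes of that size showed this. The exceptions were Pde3a and Wee2, with the start lower in 2 of 3 replicates. Of the others, Cdc25b had a log2 ratio of start to rest of -1.72 ± 0.56 (SD, n = 3; exact sign-flip test, two-sided, p = 0.25), Ccnb2 of -1.25 ± 0.68 and Ccnb1 of -0.72 ± 0.34, with the same p. Adcy3, Cdk1 and Fbxo43 each had a start window without reads in at least 1 replicate, so no ratio was formed. H3K36me3 was called in the start window of 5 of the 10 genes, Gpr3, Pde3a, Wee2, Ccnb1 and Ccnb2, and in 22.8% of start windows of protein-coding genes. H3K27me3 was called in 1 of 10, that of Adcy3, against 32.9%. A start window of the fixed 2 kb grid also holds some sequence from before the gene.

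The last part of the gene mostly had more of the mark than the first. With each gene of at least 6 windows split into 3 equal parts, the last part was above the first in 6 of 7 genes, in all 3 replicates. Among protein-coding genes of that size 46.5% did the same. The first part includes the start window, so this comparison partly repeats the one of the start with the rest. Whether the mark rises beyond the start window was not tested. The log2 ratio of last to first part was 1.98 ± 0.40 in Adcy3, where the last part takes in the Cenpo overlap, 1.56 ± 1.07 in Cdc25b, 0.90 ± 0.21 in Ccnb2, 0.79 ± 0.37 in Fbxo43, 0.61 ± 0.31 in Wee2 and 0.55 ± 0.36 in Cdk1 (SD, n = 3; exact sign-flip test, two-sided, p = 0.25 for each). In Cdc25b the spread came from replicate 2, whose first part had 0.595 RPKM against 1.97 and 1.86 in replicates 1 and 3. Pde3a was flat, with a ratio of 0.00 ± 0.06 (SD, n = 3; exact sign-flip test, two-sided, p = 1.0). When only windows whose midpoint lies inside the gene were used, 4 of the 7 genes were higher at the end in all 3 replicates.

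**Figure D4:**
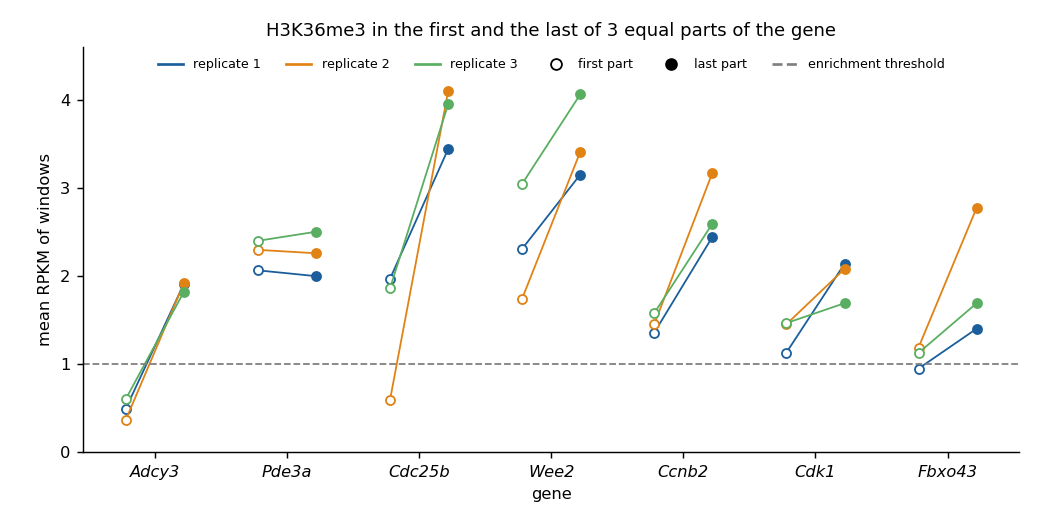
Mean RPKM in the first (open) and the last (filled) of 3 equal parts of each gene of at least 6 windows, joined for each replicate. The line rises in all 3 replicates for 6 genes and is flat for Pde3a. The first part includes the start window.

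Several of these genes belong to families whose other members can be set beside them. Among the WEE kinases, Wee2 was above Wee1, at 1.86, 2.34 and 2.25 RPKM, and above Pkmyt1, at 1.99, 0.991 and 2.03, in all 3 replicates, by 0.604 ± 0.355 and 1.08 ± 0.565 (SD, n = 3), and its values did not overlap theirs. Both of the others were also enriched as a whole. Cdc25b was above Cdc25a by 0.368 ± 0.208 and above Cdc25c by 0.485 ± 0.281 RPKM (SD, n = 3) in all 3 replicates, though the ranges over replicates overlapped. All 3 phosphatase genes were enriched as a whole. Ccnb3, a B-type cyclin of meiosis, had 1.87, 2.12 and 2.45 RPKM and overlapped both Ccnb1 and Ccnb2.

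The cAMP genes also differed within families. Pde3a was above its paralog Pde3b, at 1.20, 1.15 and 1.27 RPKM, by 0.964 ± 0.145 (SD, n = 3), and the values did not overlap. Gpr12, a receptor related to GPR3, had 2.72, 3.17 and 4.40 RPKM, and all of these were above the highest value of Gpr3. Gpr12 is short as well, with 2 windows. Adcy1, at 2.27, 2.42 and 2.59 RPKM, and Adcy9, at 1.47, 1.53 and 1.87, both lay above Adcy3 in all 3 replicates, by 1.44 ± 0.154 and 0.642 ± 0.202 (SD, n = 3). The H3K36me3 level of a gene is not its RNA level, which was not analysed here.

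**Figure D5:**
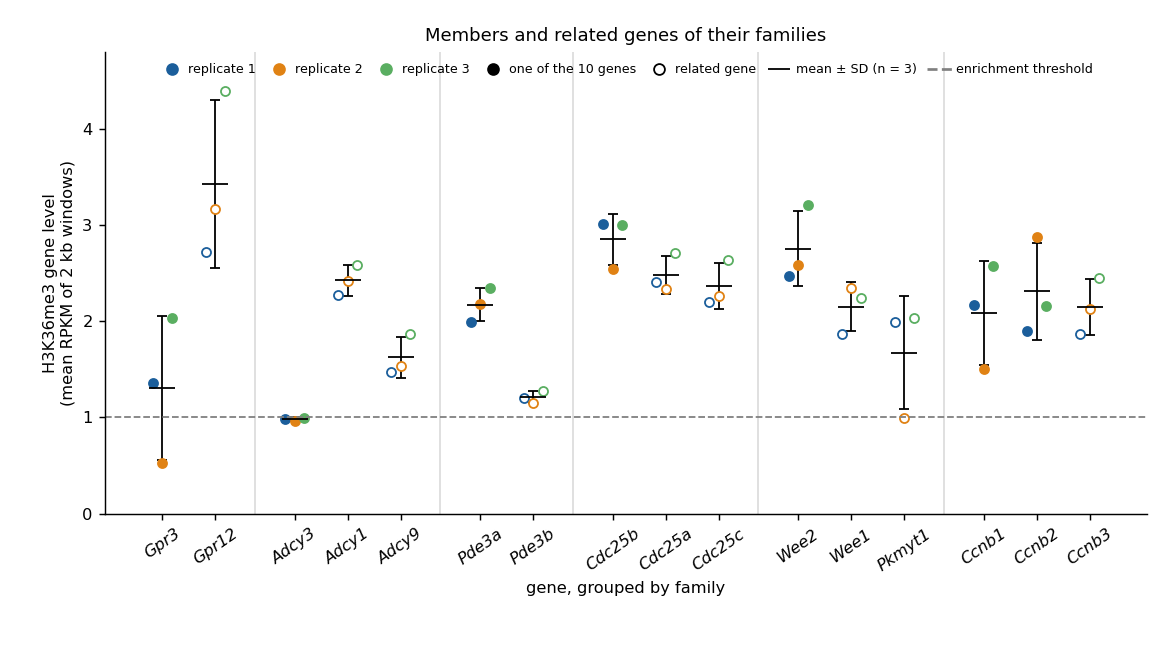
Gene level of H3K36me3 for members (filled) and related genes of their families (open), as mean RPKM of the windows; points are replicates and bars the mean ± SD of 3. Wee2 and Pde3a lie above their relatives without overlap, and Gpr3 and Adcy3 lie below theirs.

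Most genes of the wider pathways were marked as well. Of 14 further genes of cAMP and protein kinase A control, 13 had a gene level above 1, of 18 of CDK1 control 18, and of 20 of metaphase arrest and the MAP kinase cascade 19. Together that was 50 of 52, 46 of them in each replicate, against the 52.5% and 46.5% of protein-coding genes. Of protein-coding genes of up to 10 windows 41.8% were above 1, so longer genes passed more often than 52.5%. Many of the 52 genes are longer, and no share matched for size was formed for them. These lists too were chosen with earlier results of these data known. The 3 medians were 1.91, 1.95 and 2.18 RPKM. In the cAMP list Gpr12 (3.43) and Adcy1 (2.42) were highest, and Prkar2b (1.13), a regulatory subunit of protein kinase A, and the phosphodiesterase gene Pde4d (0.976) were lowest. In the CDK1 list Mastl (2.61), the Greatwall kinase, and Cdc25a (2.48) were highest, and Ppp2r2a (1.66), a regulatory subunit of protein phosphatase 2A, and Cks1b (1.12), a CDK-binding subunit, were lowest. In the list of metaphase arrest Cdc23 (3.11) and Anapc1 (2.88), both subunits of the anaphase-promoting complex, were highest, and the ribosomal S6 kinase gene Rps6ka3 (1.08) and the calcineurin gene Ppp3ca (0.618) were lowest. Ppp3ca was the gene of that list below 1. An H3K27me3 call was found in 8 of the 52 genes, against 43.9% of protein-coding genes. They included genes of low level, such as Ppp3ca with 38 of 134 windows called, and Rps6ka2, a ribosomal S6 kinase gene at 2.12 RPKM with 58 of 66.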

How the data were processed

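Native ChIP-seq of low input gave H3K36me3 in 3 replicates, each a pool of oocytes. The authors mapped the reads to GRCm38 with Bowtie2 (2.2.9 in the submitters' processing notes), counted them in 2 kb windows, removed windows of unusual input and deposited RPKM values per replicate; replicates were not pooled. Whether duplicates were removed, and whether a read across a border was counted in both windows, is not given in the sources used here, and the sums do not settle whether values were divided by window length. A second deposited table names the marks called in each window, with no measured value; windows it does not list were taken as having no mark.

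Reads were recovered as multiples of the lowest step (100% of values whole within 0.1 read). Gene levels were mean RPKM over all windows overlapping a body, on autosomes and X. Exact Poisson intervals (95%) and two-sided exact sign-flip tests over 3 replicates were used; intervals cover counting error only. That the pools came from separate animals is not stated for each, so spreads may be partly technical. The 10 genes and all lists were chosen with earlier results of these data known. All 10 were named, list genes as the 2 highest and 2 lowest, and neighbours within 10 kb. Promoters of Cdc25b and Wee2 followed the order of levels, and those of Ccnb2 and Cdk1 were picked after their values were seen. Alternatives changed window choice, statistic, thresholds, a pseudocount of 0.5 and replicates. Scripts were tested on simulated data (Python 3.11.15, NumPy 2.4.6, pandas 2.3.3, SciPy 1.17.1, Matplotlib 3.10.9).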

Additional observations from a re-analysis of the deposited data

How the results depend on the processing

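Of 37 alternative values for the counts, the median, the share of windows and the within-gene comparisons, 31 kept their main value within the spread of replicates or, for counts, within 1.5 times, and 6 moved. With a threshold of 2 in place of 1, 5 of the 10 genes were above it. The median gene level of the 10 was 2.18 with windows whose midpoint lay inside the gene, 2.22 without the start window and 1.71 as a median over windows. The share of windows enriched was 67.1% at a threshold of 1.5 and 47.1% at 2. Leaving out 1 replicate gave 8 to 9 genes above 1, medians of 1.84 to 1.95, shares of 78.2% to 82.2%, 6 to 8 genes with a lower start and 6 with a higher last part; the 8 genes with a lower start came without replicate 3. The log2 ratio of last to first part in Pde3a, near 0, ran from -0.036 to 0.018 without 1 replicate, changing sign without replicate 1 and without replicate 2. Gpr3 fell to 0.943 RPKM without replicate 3. Adcy3 rose to 1.01 with midpoints and to 1.05 with windows of at least 3 reads, and was 0.558 over windows that touch no other gene. Cdc25b fell to 2.39 with midpoints and rose to 3.16 over windows that touch no other gene. Mos rose to 2.61 with midpoints, where 1 window is left. Low depth limits Gpr3 and Mos most, with 52 and 42 reads in all.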
